A study of Mus musculus with 12 samples.

Results

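Class I antigen presentation was followed in cultured mouse aortic smooth muscle cells through 10 genes, found as the rows of the deposited expression table whose symbol is H2-K1, H2-D1, B2m, Tap1, Tap2, Tapbp, Psmb8, Psmb9, Psmb10 or Nlrc5. All 10 were present among the 25745 genes of the table. Values are FPKM, the fragments counted on a gene per kilobase of its length, scaled to the depth of the library. A mean of at least 1 FPKM over the 12 libraries was reached by 10758 genes and by 8 of the 10 members. Psmb9 and Nlrc5 lay below it and were fitted only without that filter.

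The cells were primary vascular smooth muscle cells, which make up the muscular layer of arteries, from wild-type C57BL/6J mice of 5 to 6 weeks, grown out of aortic pieces stripped of adventitia and endothelium and used at passages 5 to 8. Of 4 groups with 3 libraries each, the first received a lentivirus for αKlotho, a circulating kidney protein, together with calcification medium. The second received an empty lentiviral vector in the same medium, the third the same medium with no virus named, and the control stayed in basal medium. Calcification medium held 3.0 mM sodium phosphate, serves to induce mineral deposits, and was given for 7 days. The labels leave unsaid whether the groups without a named vector received any virus. They also leave unsaid whether replicates had different animals or cultures behind them, and a p-value here reflects only the variation among these samples, which may be technical.

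Nearly every cell shows samples of its own proteins on MHC class I molecules, where cytotoxic T cells and natural killer cells read them. Proteasomes cut the proteins, and under interferon the catalytic subunits encoded by Psmb8, Psmb9 and Psmb10 replace the constitutive ones to form the immunoproteasome. The transporter made of Tap1 and Tap2 carries the peptides into the endoplasmic reticulum, where tapasin, encoded by Tapbp, helps to load them on a heavy chain such as H2-K or H2-D paired with beta-2 microglobulin (B2m). Nlrc5 is the transactivator that binds class I promoters together with the RFX complex. In smooth muscle these genes are expressed at a basal level and respond to type I and type II interferon.

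The promoters of the called members Psmb8, Psmb10 and Tap1, and of the heavy chains and B2m, are shown because class I genes share short elements there that interferon and inflammatory factors use. Windows of RefSeq (GRCm38.p6), reaching from 250 bases before to 50 bases after the start site, were found for 8 of the 10 members, with 2 start sites for H2-K1, of which 1 is shown. Each sequence below is the 250 bases before the start, 5′ to 3′ on the strand of its gene, with matches to searched motifs in capitals.
H2-K1 (chr17:34000348-34000597, reverse strand): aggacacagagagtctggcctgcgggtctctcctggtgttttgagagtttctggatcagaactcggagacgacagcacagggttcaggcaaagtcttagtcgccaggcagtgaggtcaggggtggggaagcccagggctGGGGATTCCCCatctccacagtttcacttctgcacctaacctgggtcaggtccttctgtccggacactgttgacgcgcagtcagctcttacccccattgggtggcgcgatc
H2-D1 (chr17:35262844-35263093, forward strand): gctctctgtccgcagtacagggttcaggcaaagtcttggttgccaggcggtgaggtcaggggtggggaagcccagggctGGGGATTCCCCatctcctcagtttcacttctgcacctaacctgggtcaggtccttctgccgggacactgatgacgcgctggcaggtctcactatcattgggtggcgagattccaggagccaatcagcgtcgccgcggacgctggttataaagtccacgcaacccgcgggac
B2m (chr2:122147437-122147686, forward strand): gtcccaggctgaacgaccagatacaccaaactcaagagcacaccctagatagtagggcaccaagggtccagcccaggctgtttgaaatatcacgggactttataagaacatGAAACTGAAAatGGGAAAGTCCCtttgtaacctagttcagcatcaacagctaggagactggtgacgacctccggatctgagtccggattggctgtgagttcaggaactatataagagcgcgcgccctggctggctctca
Psmb8 (chr17:34197945-34198194, forward strand): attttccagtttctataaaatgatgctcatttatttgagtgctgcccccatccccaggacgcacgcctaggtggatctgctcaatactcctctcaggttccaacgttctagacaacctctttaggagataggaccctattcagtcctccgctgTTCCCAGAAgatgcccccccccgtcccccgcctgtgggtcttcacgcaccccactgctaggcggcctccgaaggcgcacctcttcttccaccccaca
Psmb10 (chr8:105938393-105938642, reverse strand): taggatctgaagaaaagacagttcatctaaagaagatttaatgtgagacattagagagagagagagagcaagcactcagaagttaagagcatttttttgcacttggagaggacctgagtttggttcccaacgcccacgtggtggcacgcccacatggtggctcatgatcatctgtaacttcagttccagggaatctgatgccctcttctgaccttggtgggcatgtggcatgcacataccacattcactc
Tap1, whose printed bases lie within the window of Psmb9 on the opposite strand (chr17:34187306-34187555, forward strand): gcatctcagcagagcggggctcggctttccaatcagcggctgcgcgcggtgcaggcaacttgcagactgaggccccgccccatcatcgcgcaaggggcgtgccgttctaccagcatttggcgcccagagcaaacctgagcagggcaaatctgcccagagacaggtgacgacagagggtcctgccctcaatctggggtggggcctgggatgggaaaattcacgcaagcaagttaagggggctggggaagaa

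On both strands, 4 motifs were searched in the whole windows. The NF-kB motif, GGGA and CC with any 4 bases between them, matched in H2-K1, H2-D1 and B2m, at overlapping positions on the 2 strands, and in 20.7% of all 32851 windows. The interferon-stimulated response element, GAAA repeated with any 2 bases between, matched in B2m, 139 bases before the start, and in 3.44% of all windows. Only these exact letters were searched, so the lack of a match does not show that H2-K1, H2-D1 or another member lacks such an element. The gamma-activated site TTCNNNGAA matched in Psmb8, 97 bases before the start, and in 8.30% of windows. The X2-type letters TGACGCA matched in no member and in 2.12% of windows. Here too only that spelling was searched, and tgacgcg, which differs in its last base, stands in the printed H2-K1 and H2-D1 sequences. The windows of Psmb10, Tap1, Tapbp and Psmb9 held no match. Such matches describe letters in these windows and are not shown to be bound. H2-K1 and H2-D1 shared an identical run of 47 bases that holds the NF-kB match, and the windows of Tap1 and Psmb9 shared 275 bases.

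The class I genes lie close together on chromosome 17. In the coordinates of the table, which names no genome build and placed 553 of its 25745 genes where GRCm38 has them, H2-K1 spanned 34214991 to 34219321 on the reverse strand and H2-D1 35481706 to 35486475 on the forward strand. Between them lay Psmb9 (34400961 to 34406738, reverse), Tap1 (34406527 to 34416199, forward), Psmb8 (34416695 to 34420428, forward) and Tap2 (34422501 to 34435295, forward), and Tapbp lay at 34134873 to 34148266 on the forward strand. B2m is on chromosome 2 (121978167 to 121983564), and Psmb10 (106662367 to 106665076) and Nlrc5 (95160984 to 95253900) are on chromosome 8. Tap1 and Psmb9 overlapped by 212 bases on opposite strands, and Tapbp overlapped Zbtb22, at a mean of 9.61 FPKM, on the same strand. The strand setting of the counting is not given in the sources used here, and fragments from such overlaps cannot be told apart. H2-K1 and H2-D1 belong to a family of near-identical genes, and the split of reads between its members is uncertain.

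Several facts about the libraries touch the results. Depth lay between 16650000 and 20010000 fragments per library. Kl, the gene for αKlotho, had no fragment in 11 of the 12 libraries and 1 fragment in replicate 3 of the group labelled Klotho. The level that 3 fragments represent was at most 0.0193 FPKM, which covers counting error only. The group is named below by its label, as the libraries labelled Klotho, and every direction given for it depends on that label. The summed FPKM of 7 smooth muscle markers was 156 to 277 in replicate 1 of the 4 groups, 672 to 885 in replicate 2 and 874 to 1219 in replicate 3. Replicate 1 was the lowest of each group on the second principal component, at -28.1 to -23.1 with vector replicate 1 nearer the others at -7.63. The sum of 8 macrophage and other leukocyte markers was 78.7 to 118 in replicate 1, 28.2 to 55.1 in replicate 2 and 31.1 to 35.6 in replicate 3. Lyz2 made up most of this sum in every library. Cd68 and Cd14 were also highest in replicate 1 of each group, but Csf1r was not with the Klotho label or in calcification medium. The 4 T and NK cell markers summed to at most 0.314 FPKM in any library. Control replicate 2 listed 14969 genes above 0, the fewest of the 12 libraries, against 17343 to 19361 in the others.

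The final display components were abundant in every library, and the genes of peptide supply were low. Averaged over the 12 libraries, B2m stood at 1176 FPKM, H2-D1 at 169 and H2-K1 at 99.9. Tapbp followed at 42.7, Psmb10 at 17.6, Tap2 at 8.76, Tap1 at 7.67 and Psmb8 at 3.16 FPKM, with Psmb9 at 0.87 and Nlrc5 at 0.70. FPKM is scaled by length, so these levels can be set beside each other, but B2m and H2-D1 were the only neighbours in this order whose ranges over the 12 libraries did not overlap.

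**Figure D1:**
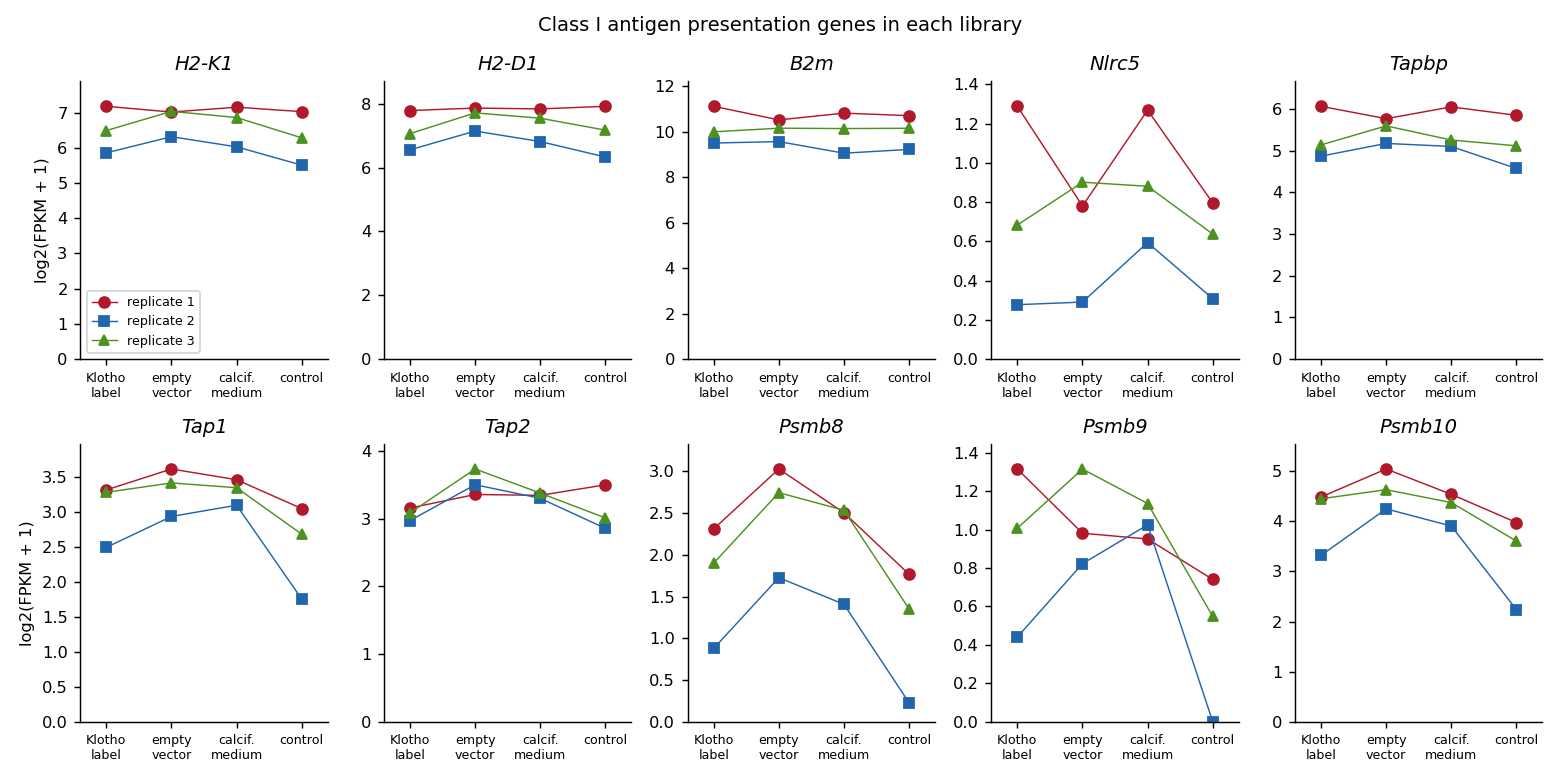
Level of each of the 10 genes as log2(FPKM + 1) in the 12 libraries, by group, with 1 symbol and line per replicate number. H2-K1, H2-D1, B2m and Tapbp run nearly flat across the groups with replicate 2 lowest, while Tap1, Psmb8, Psmb9 and Psmb10 are lowest in control within each replicate number.

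Values are given below for replicates 1, 2 and 3 of each group, in that order. Psmb8, the immunoproteasome subunit LMP7, stood at 3.96, 0.838 and 2.73 FPKM in the libraries labelled Klotho, 7.16, 2.31 and 5.70 in the vector libraries, 4.68, 1.65 and 4.79 in calcification medium, and 2.403, 0.171 and 1.55 in control. Control replicate 2, the lowest value, rested on 10 fragments. Psmb10, the subunit MECL-1, stood at 21.4, 8.98 and 20.9 FPKM with the Klotho label, 32.0, 18.0 and 23.8 with vector, 22.2, 14.0 and 19.7 in calcification medium, and 14.7, 3.72 and 11.2 in control. In both genes replicate 2 was the lowest of its group in all 4 groups, and each control value was the lowest of its replicate number, so groups overlapped although every same-numbered comparison went the same way. Psmb9, the subunit LMP2, stood at 1.49, 0.357 and 1.01 FPKM with the Klotho label, 0.974, 0.768 and 1.49 with vector, 0.933, 1.03 and 1.20 in calcification medium, and 0.671 and 0.462 in control replicates 1 and 3. It was listed at 0 in control replicate 2, where 3 fragments would be 0.0473 FPKM, and it had 24 to 96 fragments in the 9 libraries of calcification medium.

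Tap1, the transporter chain that pairs with Tap2, followed the same order. It stood at 8.99, 4.65 and 8.76 FPKM with the Klotho label, 11.3, 6.68 and 9.70 with vector, 10.1, 7.58 and 9.21 in calcification medium, and 7.30, 2.38 and 5.44 in control. The lowest calcification value was above the highest control value. Tap2 behaved differently, at 7.92, 6.85 and 7.49 FPKM with the Klotho label, 9.24, 10.3 and 12.3 with vector, 9.16, 8.85 and 9.39 in calcification medium, and 10.3, 6.24 and 7.06 in control. Its libraries labelled Klotho lay below all vector and all calcification libraries and within the control range, and its replicate 2 was not the lowest with vector.

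The loading and display genes varied more within groups than between them. Tapbp stood at 65.8, 28.2 and 34.2 FPKM with the Klotho label, 53.4, 35.1 and 47.3 with vector, 65.2, 33.3 and 37.2 in calcification medium, and 56.6, 22.8 and 33.7 in control. H2-K1 stood at 144, 57.0 and 88.9 FPKM with the Klotho label, 128, 78.6 and 130.2 with vector, 141, 64.2 and 115 in calcification medium, and 129, 44.5 and 76.9 in control. H2-D1, the second classical heavy chain, stood at 220.5, 93.4 and 133 FPKM with the Klotho label, 233, 141 and 209.6 with vector, 229, 112 and 186 in calcification medium, and 242, 79.7 and 144 in control. In all 3 genes the groups overlapped, and replicate 2 was the lowest library of every group. B2m stood at 2207, 719.9 and 1013 FPKM with the Klotho label, 1458, 753 and 1132 with vector, 1791, 528 and 1120.2 in calcification medium, and 1661, 593 and 1129.6 in control, with replicate 1 highest in each group. Nlrc5, the transactivator, rested on 33 to 228 fragments per library, at 1.44, 0.212 and 0.606 FPKM with the Klotho label, 0.718, 0.223 and 0.868 with vector, 1.41, 0.509 and 0.842 in calcification medium, and 0.736, 0.238 and 0.556 in control.

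How far the replicate number, rather than the group, set these levels was described by splitting the sum of squares of log2(FPKM + 1). Replicate numbers held 91.8% for B2m, 82.8% for Tapbp, 80.0% for H2-D1, 79.6% for H2-K1 and 71.2% for Nlrc5, against a median of 19.8% over the tested genes. Groups held 1.57% for B2m, 7.90% for Tapbp, 12.5% for H2-D1 and 13.01% for H2-K1, against a median of 40.7%. Psmb8 (43.9% between groups and 55.0% between replicate numbers), Psmb10 (49.3% and 42.3%) and Tap1 (44.9% and 46.2%) carried both parts. Tap2 stood apart from the other members, with 55.8% between groups and 10.3% between replicate numbers. Replicate 1, with the highest levels of most members, also had the lowest smooth muscle and the highest leukocyte marker sums given above. In RNA of whole cultures, fewer cells of a type and less RNA per cell cannot be told apart, and the part of the marker genes in the members' spread was not tested.

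**Figure D2:**
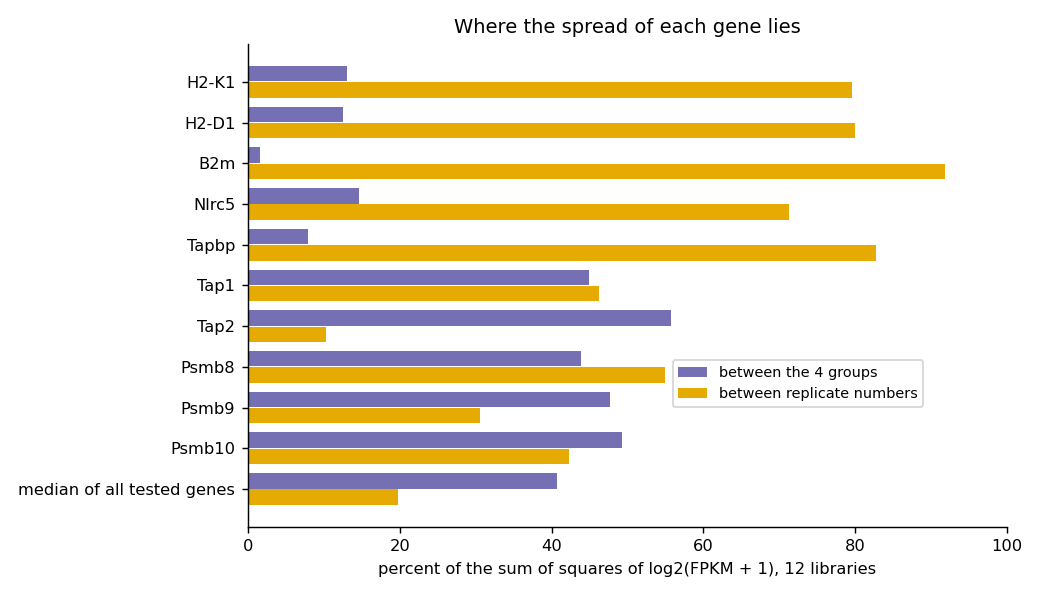
Share of each gene's sum of squares of log2(FPKM + 1) over 12 libraries, in percent, that lies between the 4 groups and between the 3 replicate numbers, for the 10 genes and for the median tested gene. The bars for B2m, Tapbp and the heavy chains lie mostly with the replicate number, and the bar for Tap2 with the group.

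Calcification medium was first set against control to see how the class I pathway responds to it. All tested members but B2m had a positive log2 fold change in calcification medium, largest in Psmb8, Psmb10 and Tap1, which supply peptides. The libraries of Psmb8 and Psmb10 overlapped control, as did those of the display genes. Averages were 3.71 ± 1.78 FPKM for Psmb8 in calcification medium and 1.37 ± 1.13 FPKM in control, 18.7 ± 4.24 and 9.88 ± 5.62 FPKM for Psmb10, and 8.95 ± 1.26 and 5.04 ± 2.48 FPKM for Tap1 (SD, n = 3 each). Without regard to replicate numbers none of the 8 tested members passed limma's test at a Benjamini-Hochberg adjusted p of 0.05, where 0.706% of all tested genes did. Log2 fold changes were 1.03 ± 0.49 (SE) for Psmb8 (limma adjusted p = 0.465), 1.00 ± 0.43 for Psmb10 (0.394) and 0.81 ± 0.32 for Tap1 (0.345).

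In these 2 groups same-numbered libraries deviated together across genes, and a second fit took the replicate number in as a block. The block was a common effect of each replicate number over all 12 libraries. It thus included the vector libraries, whose replicate 3 did not deviate together with that of calcification medium (correlation -0.0635). With the block, Psmb8 (log2 1.03 ± 0.12, limma adjusted p = 0.00156), Tap1 (0.81 ± 0.16, adjusted p = 0.0181) and Psmb10 (1.00 ± 0.20, adjusted p = 0.0202) rose, and no tested member fell, where 1.17% of all tested genes did. That is 3 of 8 tested members higher, where 2.74% of all tested genes were called higher. Only Psmb8 kept its call when any single library was left out. Psmb10 and Tap1 were not called without calcification replicate 2 (adjusted p = 0.123 and 0.102), without calcification replicate 3 (0.0561 and 0.0504), without control replicate 2 (0.0707 and 0.0776) or without control replicate 3 (0.0542 and 0.0678). Without control replicate 2, whose list of expressed genes was shortest, Psmb8 had log2 0.98 and adjusted p = 0.0102 with the block. Without control replicate 2 and without the block the log2 fold changes were 0.59 for Psmb8, 0.48 for Psmb10 and 0.44 for Tap1, and none passed. Only Psmb8 was called with the block when all genes above 0 were tested (adjusted p = 0.0122).

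The other members had smaller differences that did not pass with or without the block. For H2-K1 the log2 fold change was 0.41 (limma adjusted p = 0.187 with the block), Tapbp 0.29 (0.341), H2-D1 0.26 (0.421), Tap2 0.22 (0.501) and B2m -0.02 (0.965). Fitted without the filter, Psmb9 had 0.61 (0.258) and Nlrc5 0.33 (0.439). Tap1 and Psmb9 were the members whose calcification libraries did not overlap control, in a table where 9.19% of tested genes lay wholly above control. The median over the 8 tested members was 0.35, against 0.04 over all tested genes.

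**Figure D3:**
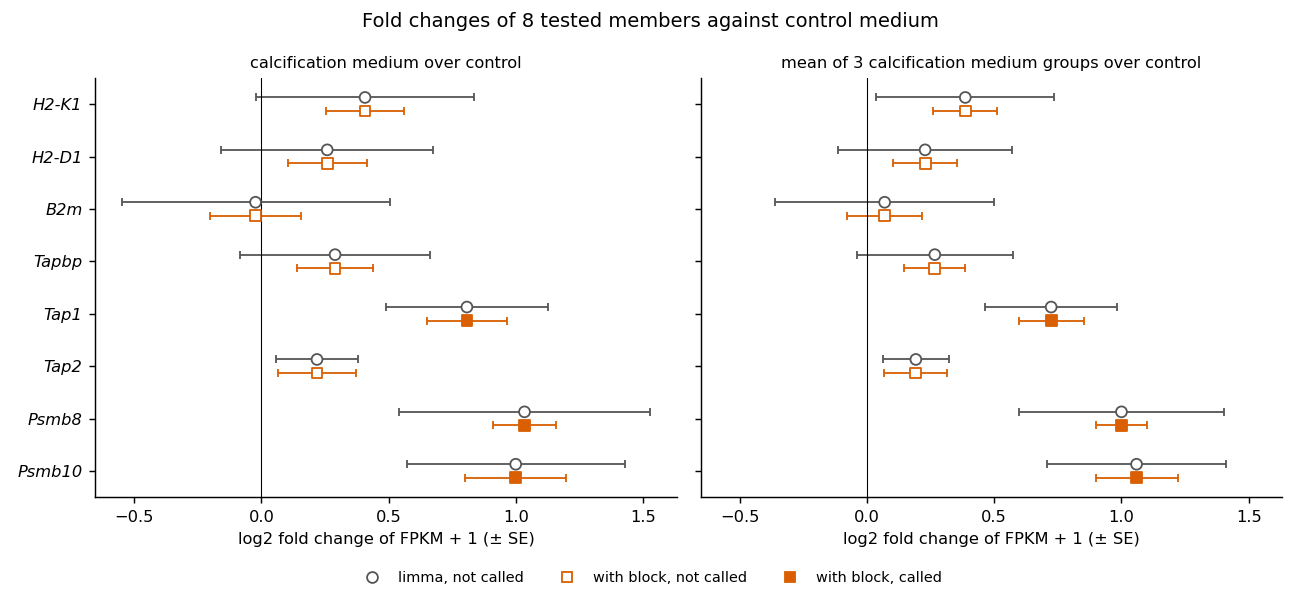
Log2 fold change of FPKM + 1 with its standard error for the 8 tested genes, in calcification medium over control on the left and in the mean of the 3 calcification medium groups over control on the right. Circles are the fit without and squares the fit with the replicate number as a block, filled where the adjusted p is under 0.05: Psmb8, Psmb10 and Tap1 are filled on both sides.

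Taking all 3 calcification medium groups together against control asked whether the same genes were higher whatever the virus. These libraries include those of the previous comparison and share its control, so the result does not stand on its own. No tested member was called without the block, where 4.38% of all tested genes were (Psmb10 adjusted p = 0.093, Tap1 0.117 and Psmb8 0.148 by limma). With the block Psmb8 (log2 1.00 ± 0.10, adjusted p = 0.000274), Psmb10 (1.06 ± 0.16, adjusted p = 0.00246) and Tap1 (0.72 ± 0.13, adjusted p = 0.00526) rose, 3 of 8 where 9.45% of all tested genes rose and 6.58% fell. All 3 remained called in each of the 12 fits that left out a library. The highest limma adjusted p was 0.0456 for Tap1 (log2 0.54) and 0.0176 for Psmb10 (0.80), both without control replicate 2, and 0.0045 for Psmb8, without control replicate 3. Without control replicate 2 and without the block, the fold changes were 0.56 for Psmb8, 0.54 for Psmb10 and 0.35 for Tap1.

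Within replicate numbers, Tap1, Psmb8, Psmb9 and Psmb10 were above control in 9 of 9 comparisons of a calcification medium library with its same-numbered control, which 10.6% of tested genes were. No member lay wholly above control over all 9 libraries, as 4.16% of tested genes did. H2-K1 and Tapbp were above in 8 of 9, Tap2 and Nlrc5 in 6, and H2-D1 and B2m in 5. H2-K1, at log2 0.39 with the block (limma adjusted p = 0.0598), did not pass with all libraries but did without control replicate 1 or without vector replicate 1. Without control replicate 1, Tap2 was called as well, and without vector replicate 1, Tapbp was. Tapbp (0.27, adjusted p = 0.144), H2-D1 (0.23, 0.221), Tap2 (0.19, 0.291) and B2m (0.07, 0.763) did not pass with all libraries.

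Single markers of several cell types differed between calcification medium and control, in both directions. The mesothelial or epithelial marker sum was 33.7 to 99.1 FPKM with the Klotho label, 38.9 to 112 with vector and 33.4 to 115 in calcification medium, against 6.07 to 19.3 in control, and Msln, a mesothelial gene, made up most of it in the 9 calcification medium libraries. A sum of 5 fibroblast and adventitia markers, mostly Ly6a, which interferon also induces, was 913 to 1583, 1017 to 1259 and 626 to 1215 FPKM in those groups, against 506 to 709 in control. With the block Msln (log2 3.31) and Ly6a (0.67) rose in calcification medium by limma, and Col14a1 (-1.85), a fibroblast collagen of the list that holds Ly6a, fell. Ly6a lost that call without any 1 library of calcification medium or control, or without replicate 2 or 3 of the Klotho label. In the 3 groups together with the block, Msln (3.37) and Ly6a (0.90) rose, while Upk3b (-0.32) of the mesothelial list and Col14a1 (-2.01), Pdgfra (-0.72) and Dpt (-0.57) of the fibroblast list fell. Tagln (-0.44, limma adjusted p = 0.0442) and Cnn1 (-0.50, 0.0261), contractile genes and the called ones of the 7 smooth muscle markers, fell there too, where 6.58% of all tested genes fell. Of 4 tested leukocyte markers Csf1r, the macrophage growth factor receptor, was called (0.56, limma adjusted p = 0.0143), where 9.45% of all tested genes rose. Lyz2 (-0.08) and Cd14 (-0.20) were not called. Without control replicate 2, of these markers only Msln, Ly6a and Col14a1 were called in the 3 groups together. With all libraries and without the block, Msln (limma adjusted p = 0.0457) and Col14a1 (0.0421) were called in calcification medium as well. In the 3 groups together, also without the block, Msln (0.00713), Col14a1 (0.00421), Csf1r (0.0380) and Ly6a (0.0444) were. No member was called in either comparison without the block. Ptprc, the pan-leukocyte gene, was at most 0.0631 FPKM in any library. The part of these genes in the members' differences was not tested.

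The share of immunoproteasome among catalytic subunits was compared within each library as the summed FPKM of Psmb8, Psmb9 and Psmb10 over that of these 3 and the constitutive Psmb5, Psmb6 and Psmb7. It was 17.0%, 6.11% and 10.4% with the Klotho label, 13.5%, 8.88% and 12.7% with vector, 18.2%, 9.76% and 9.83% in calcification medium, and 9.59%, 3.31% and 8.18% in control. Each calcification medium library lay above its same-numbered control, in 9 of 9 comparisons, while the groups overlapped. These comparisons share 3 control libraries. Psmb10 made up most of the immunoproteasome sum in every library, so the share is not an observation separate from Psmb10. The mean was 12.6 ± 4.86% in calcification medium and 7.02 ± 3.30% in control (SD, n = 3 each), and no p is given, since the sum was formed with the members' results known. The share is of RNA, and depends on the gene lengths used.

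**Figure D4:**
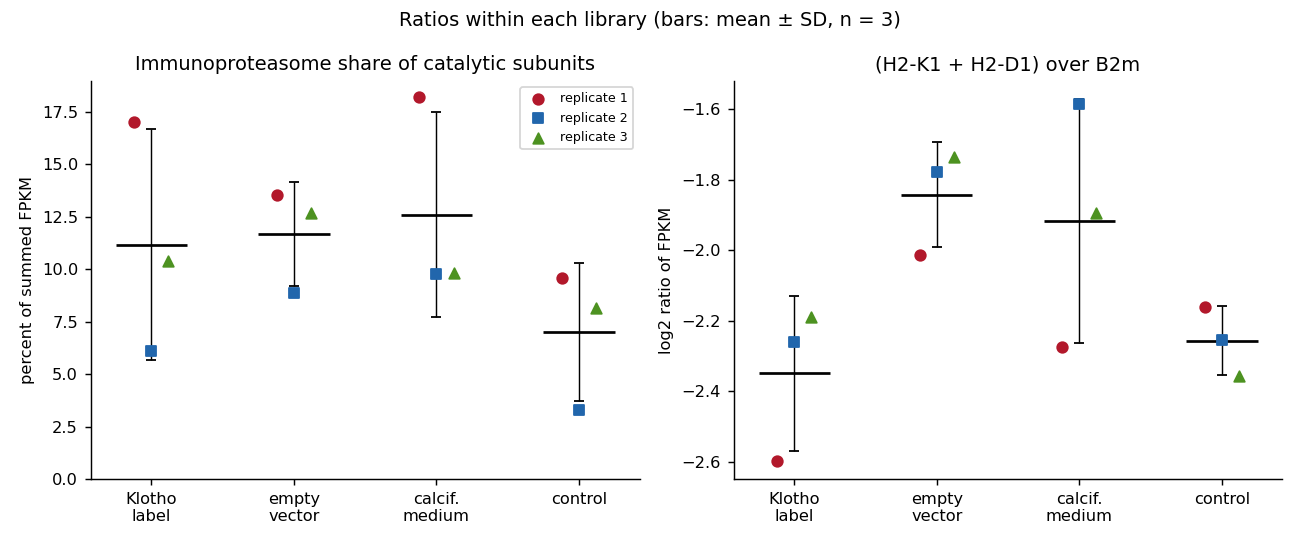
Immunoproteasome share of catalytic subunits in percent of summed FPKM (left) and log2 ratio of summed H2-K1 and H2-D1 to B2m (right), per library, with the mean and SD of 3 libraries per group. The share is lowest in control within each replicate number, and the ratio of the vector libraries lies above that of the libraries labelled Klotho and of control.

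The second question was whether αKlotho lentivirus changed the pathway relative to the empty vector. Without a block no tested member passed limma's test, and 0.0% of all tested genes did, while 1514 of 10758 had an unadjusted p under 0.05. All tested members but B2m had lower averages with the Klotho label, the peptide supply genes and the heavy chains alike. Psmb8 averaged 2.51 ± 1.57 FPKM with the Klotho label and 5.06 ± 2.49 with vector (log2 -0.80 ± 0.49 SE, n = 3 each, limma adjusted p = 0.47), and Psmb10 17.1 ± 7.02 and 24.6 ± 7.03 FPKM (-0.56 ± 0.43, adjusted p = 0.568). The constitutive subunits Psmb5 (-0.50 ± 0.25, limma adjusted p = 0.382), Psmb6 (-0.51 ± 0.25, 0.383) and Psmb7 (-0.28 ± 0.22, 0.583) were lower too, and none was called. The immunoproteasome share was thus 11.2 ± 5.50% with the Klotho label and 11.7 ± 2.47% with vector (SD), higher with the Klotho label in 1 of 3 same-numbered pairs. Tap2 averaged 7.42 ± 0.54 and 10.6 ± 1.55 FPKM (-0.46 ± 0.16, adjusted p = 0.262). Tap2 was the member whose libraries did not overlap, where 10.4% of tested genes lay wholly below vector.

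Of the others, H2-D1 had a log2 fold change of -0.44 ± 0.42, Tap1 -0.29 ± 0.32, H2-K1 -0.28 ± 0.43, Tapbp -0.15 ± 0.37 and B2m 0.12 ± 0.53, with limma adjusted p between 0.657 and 0.934. For Tap1, H2-K1, Tapbp and B2m the difference was smaller than its standard error. The median over the 8 members was -0.37, against -0.01 over all tested genes.

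**Figure D5:**
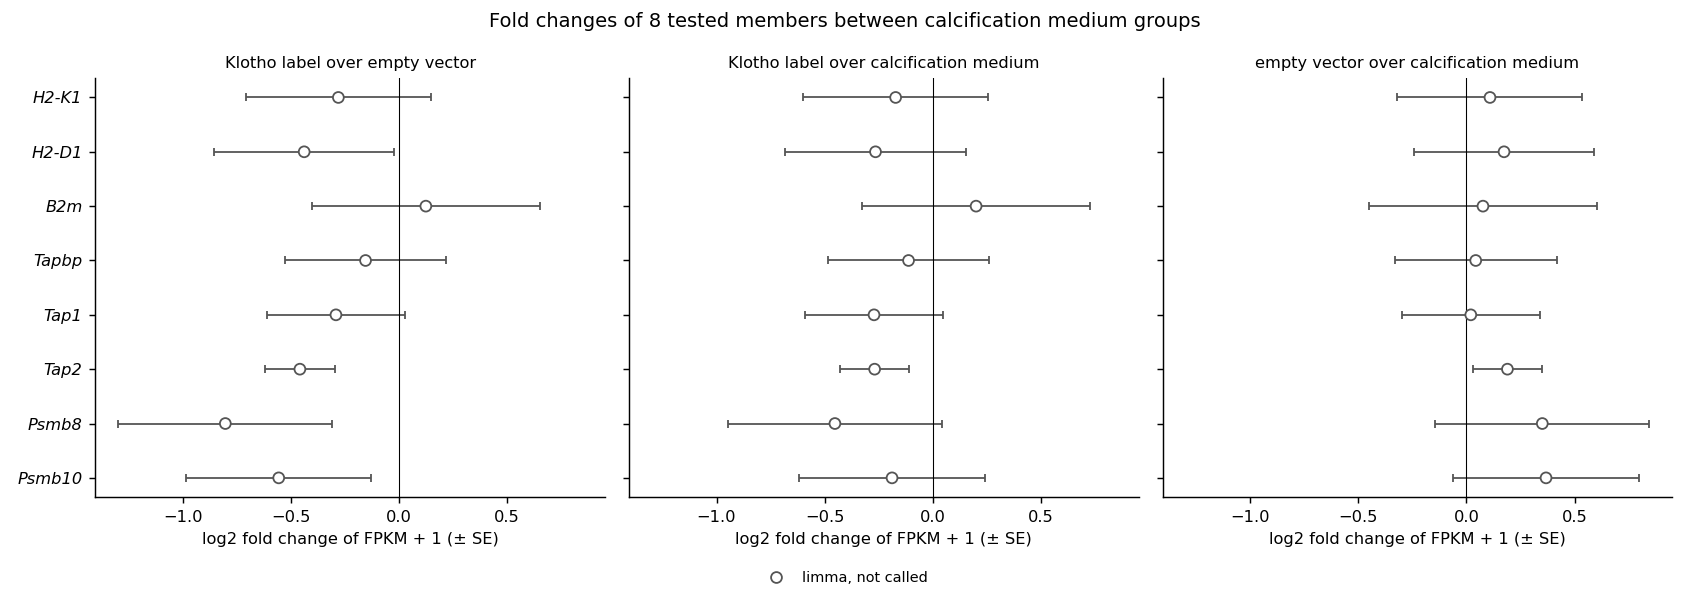
Log2 fold change of FPKM + 1 with its standard error for the 8 tested genes in the 3 comparisons among calcification medium groups, from the fit without a block. No gene is called, and Psmb8 lies farthest from 0 in the Klotho label over empty vector, at -0.80.

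The heavy chains and B2m, which form 1 complex at the cell surface, did not keep a fixed ratio. The log2 ratio of summed H2-K1 and H2-D1 to B2m was -2.60, -2.26 and -2.19 with the Klotho label, -2.01, -1.78 and -1.74 with vector, -2.28, -1.58 and -1.89 in calcification medium, and -2.16, -2.25 and -2.36 in control. All libraries labelled Klotho lay below all vector libraries (means -2.35 ± 0.22 and -1.84 ± 0.15, SD, n = 3 each), and overlapped calcification medium and control. The vector libraries also lay above all control libraries (mean -2.26 ± 0.10), and overlapped calcification medium. How often ratios of other genes separate these groups was not determined. Again no p is given for a ratio formed from the members.

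The vector alone was compared with calcification medium to see whether the empty lentivirus itself altered the pathway. No tested member was called, nor was any of the 10758 genes (0.0%), though 1520 had an unadjusted p under 0.05 by limma. All 8 members had a positive log2 fold change, from 0.02 ± 0.32 for Tap1 to 0.37 ± 0.43 for Psmb10, with adjusted p between 0.567 and 0.979. Several of these signs turn under other scalings, and, as most members ran alike over the libraries, they are not separate observations. None of the members lay wholly above calcification medium, where 6.11% of tested genes did.

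The libraries labelled Klotho were last compared with calcification medium without a named virus. No member and 0.0% of tested genes passed limma's test, and 337 genes had an unadjusted p under 0.05. The members' log2 fold changes ran from -0.45 ± 0.49 for Psmb8 to 0.20 ± 0.53 for B2m, and 7 of the 8 were negative. Most members ran alike over the libraries, so these signs are not separate observations. Tap2, at 7.42 ± 0.54 FPKM with the Klotho label and 9.13 ± 0.27 in calcification medium, again did not overlap (log2 -0.27 ± 0.16), where 4.26% of tested genes lay wholly below. With the block no member passed (limma adjusted p from 0.926 to 0.974). H2-D1, Tap1, Tap2 and Psmb8 were lower in 3 of 3 same-numbered pairs, as were 23.5% of tested genes.

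Genes around the pathway were read from lists. Interferon-stimulated genes outside class I were compared with control first. Of 25 on the list 23 were tested, 23 had a positive fold change with a median of 0.82, and with the block 5 rose, where 2.74% of all tested genes did, and none fell, among them Oasl2 (log2 1.42, adjusted p = 0.0304), a 2′-5′ oligoadenylate synthetase-like antiviral gene, and Gbp3 (1.37, 0.0264), a guanylate-binding protein. The others were Gbp2 (0.79, 0.0301), the RNA sensor regulator Dhx58 (0.90, 0.0462) and Oas1a (0.82, 0.0485). In all 3 calcification medium groups together 14 rose with the block, where 9.45% of all tested genes did, among them Oasl2 (1.25), Gbp3 (1.12), Dhx58 (0.88), Oas1a (0.79), Gbp2 (0.68), Ifit3 (1.08, adjusted p = 0.0143) and Isg15 (1.36, 0.0255), the ubiquitin-like modifier. None of the list was called without control replicate 2 in either comparison, where the medians were 0.58 and 0.47 and the share of all tested genes called with the block was 1.58% and 4.24%. In calcification medium the count also fell to 0 without calcification replicate 2, to 1 without control replicate 3, to 2 without calcification replicate 3 or vector replicate 2, and to 3 without replicate 1 or 3 of the Klotho label or vector replicate 3. In the 3 groups together it fell to 2 without control replicate 3, to 7 without vector replicate 2 and to 9 without calcification replicate 2 or replicate 1 of the Klotho label. No member of the list was called without the block, or between the virus groups, where the median was -0.10 with the Klotho label over vector.

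Among regulators of class I transcription, Irf7, the interferon regulatory factor that amplifies type I interferon, was called in both comparisons with control. It stood at 33.2, 7.25 and 21.3 FPKM with the Klotho label, 44.7, 9.97 and 33.9 with vector, 34.2, 11.3 and 27.5 in calcification medium, and 19.5, 2.54 and 9.92 in control. Each control library was the lowest of its number. Irf7 was the 1 gene of 16 tested on this list to rise in calcification medium with the block (log2 1.32 ± 0.16, limma adjusted p = 0.00169), where 2.74% of all tested genes rose. It was also the 1 to rise in each of the 12 fits that left out a library. Without the block its limma adjusted p was 0.544. In all 3 groups together Irf7 (1.27) and Irf9 (0.35), part of the factor ISGF3, rose with the block, where 9.45% of all tested genes rose. Stat3 (-0.44) and Irf2 (-0.32), a repressor of interferon responses, fell there, as did 6.58% of all tested genes. Without control replicate 2 or control replicate 3 only Irf7 passed. Irf7 and Stat3 passed without calcification replicate 2 or vector replicate 2. Irf1 (log2 0.52), a factor that drives class I genes under interferon gamma, was not called in calcification medium.

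Transcripts of interferon beta were hardly seen. Ifnb1, the gene for interferon beta, was listed at 0 in every library except replicate 2 labelled Klotho, at 0.0727 FPKM, which is 1 fragment. Of 9 tested ligands, receptors and signal carriers, none was called in calcification medium with the block, where 2.74% of all tested genes rose and 1.17% fell. In all 3 groups together Socs3, a feedback inhibitor of cytokine receptors, fell, where 6.58% of all tested genes did. Its log2 was -0.57 (limma adjusted p = 0.00497 with the block), and it was called in each fit that left out a library. Jak1, a receptor kinase with a mean of 42.7 FPKM, and Ifngr2, a chain of the interferon gamma receptor with 24.4 FPKM, were the highest of the list and were not called with all libraries. In calcification medium Socs3 was called without replicate 1 of the Klotho label or vector replicate 1. In the 3 groups together Jak1 was called without control replicate 1, and Socs1 without calcification replicate 3.

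Other class I heavy chains were mixed. H2-T22, a nonclassical chain read by gamma delta T cells, stood at 80.5, 51.6 and 73.2 FPKM with the Klotho label, 115, 66.9 and 84.7 with vector, 80.9, 56.1 and 81.8 in calcification medium, and 59.5, 32.3 and 39.9 in control. Each control library was the lowest of its number. With the block it rose in calcification medium (log2 0.74 ± 0.12, adjusted p = 0.0075) and in all 3 groups (0.80 ± 0.10, 0.000758), and without control replicate 2 it was still called in both. In calcification medium it lost the call without calcification replicate 2 or control replicate 3, and Hfe was called beside it without control replicate 1 or vector replicate 1. H2-T22 was the 1 gene of 9 tested to rise in the first, where 2.74% of all tested genes rose. Hfe (0.58, limma adjusted p = 0.0101), which controls iron uptake, joined it in the second, where 9.45% rose, but not without control replicate 2 or 3. As a close relative of other H2-T genes, H2-T22 carries the same uncertainty of read assignment. H2-T23, the gene for Qa-1, was not called (log2 0.36 in calcification medium).

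Helpers of peptide trimming and loading had calls in both directions. In calcification medium none of 12 tested was called, where 2.74% of all tested genes rose and 1.17% fell with the block, and the median was -0.27. In all 3 groups together Npepps, a cytosolic aminopeptidase, fell without the block too (log2 -0.48 ± 0.10, limma adjusted p = 0.0257), where 4.38% of all tested genes were called. With the block Canx (-0.39) and Calr (-0.31), the chaperones calnexin and calreticulin, and Tpp2 (-0.36), a cytosolic peptidase, also fell. Thop1 (0.64), an oligopeptidase that destroys peptides, rose. Of all tested genes 6.58% fell and 9.45% rose there. Without control replicate 2 only Npepps was called, without control replicate 3 none was, and without any 1 of replicates 2 and 3 of calcification medium or the Klotho label, or vector replicate 2, Npepps and Thop1 were. Constitutive proteasome genes and activators, of which Psmb5 (109 FPKM) and Psmb6 (47.8 FPKM) had the highest means, had a median of 0.15 in calcification medium with none of 8 called. In all 3 groups Psme1 (0.40, limma adjusted p = 0.0286), a subunit of the proteasome activator PA28, rose with the block, where 9.45% of all tested genes did. Psme1 was not called without replicate 2 or 3 of control or the Klotho label, or without vector replicate 2, and without control replicate 1 4 genes of the list were called.

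Of 7 class II genes 2 were tested, H2-DMa and H2-DMb1, which help to load class II molecules, and neither was called in any comparison. H2-DMb1 stood at 6.93 to 14.4 FPKM and H2-DMa at 1.42 to 2.53 FPKM over the 12 libraries. The other 5 averaged under 1 FPKM. The invariant chain Cd74 was at most 0.481 FPKM and the class II transactivator Ciita at most 0.0367 FPKM in any library.

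The 10 tested genes outside the members whose log2 levels were most alike to the mean of the members' standardised levels, by Pearson's r over the 12 libraries, were Apol9b, Oasl2, Usp18, Irf7, Uba7, Irf9, Bst2, Rtp4, Apol9a and Phf11d. Their r ran from 0.974 for Apol9b to 0.955 for Phf11d. After the mean of each replicate number was removed from both sides it ran from 0.953 for Apol9b to 0.853 for Phf11d. All 12 points share that effect, the medium and the depth of their library, and the values are a description with no test. Of the 10, 4 were on the list of interferon-stimulated genes, which held 23 of the 10758 tested genes. Irf7 and Irf9 were on the list of regulators instead. The list of interferon-stimulated genes is not complete, so a gene missing from it can still be one. Among the members themselves H2-K1 and H2-D1 ran most alike (r = 0.98), with Tap1 and Psmb10 (0.98), while Tap2 and B2m had the lowest r (0.29).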

How the data were processed

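RNA of 12 libraries, 3 in each of 4 groups taken from the labels, was sequenced. The authors deposited 1 table of FPKM per gene, a unit read from the values, and columns not used numbered 0. CASAVA 1.8.2, STAR 2.4 and DESeq2 3.12 are named per the submitters' processing notes, as are the builds GRCm38 and GRCm39; no role or strand setting was stated in those sources. Low values came in steps of 1 fragment, and with exon lengths from a GENCODE annotation (99.2% of genes) gave depths of 16650000 to 20010000 fragments, at which 98.07% to 98.35% of values under 100 fragments were whole within 0.05. Intervals and floors cover counting error only. No replicates were merged (chi-square per gene 32.0 to 89.9).

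The test was limma 3.58.1 in R 4.3.3 with an intensity trend on log2(FPKM + 1), which understates the change of low genes, over the 10758 genes that averaged 1 FPKM or more. All 12 libraries shared 1 spread, Benjamini-Hochberg adjustment ran over every tested gene, and a gene was called under 0.05. The fit without the block was tested on simulated data that held no replicate-number effect. The fit with the block was not tested in this way.

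The labels number the replicates without giving the meaning of a number. They were taken to pair groups where every same-numbered correlation of deviations exceeded 0.1, as in calcification medium and control (0.427, 0.509 and 0.199), the Klotho label and calcification medium (0.731, 0.573 and 0.673), and all 9 pairs with control (0.199 to 0.571). Vector did not meet this with the Klotho label or calcification medium (replicate 3 at 0.00556 and -0.0635), yet every blocked fit held vector libraries. A blocked fit without the vector group was not run.

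The members and lists were chosen with earlier results of these data known. All members were named in every comparison; from each list, genes called with or without the block, at most 6 by smallest adjusted p, or else the 2 of highest mean, and the 10 genes most alike to the members. Isg15, Irf1 and H2-T23 and the class II genes Cd74 and Ciita were named after their values were seen. Permutation tests planned for the ratios were not run, because no p is given for a score over the members. Alternatives were other scalings, pseudocounts, filters, GC content and length, the block and leaving out each library; those leaving out libraries with the block were chosen after seeing the data.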

Additional observations from a re-analysis of the deposited data

How the results depend on the processing

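Without the replicate number in the fit, 0 members were called in any comparison. With the replicate block 3 were called in calcification medium against control and 3 in all calcification medium groups against control, also with GC content and length in the same fit (3 and 3). With the block, testing all genes without the filter called 1 in calcification medium, and leaving out each library called between 1 and 3 there and between 3 and 5 in the 3 groups together. The Klotho label and vector, and vector and calcification medium, share only replicate numbers (correlations 0.294, 0.522 and 0.00556, and 0.314, 0.497 and -0.0635). With the block 1 member, Psmb8, was called in the first (adjusted p = 0.0464, where 0.102% of tested genes were, and called in 2 of 12 fits that left out a library, with adjusted p up to 0.256) and 0 in the second. The block changed no other call.

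Small fold changes turned sign, and the cause was not tested. B2m in all calcification medium groups had -0.0382 with quantile scaling and -0.0374 with GC content and length, with or without the block. In the Klotho label over vector, replicates 2 and 3 alone gave -0.11 for B2m and -0.12 for Nlrc5, and GC content and length gave 0.0079 for Tapbp. In vector over calcification medium, quantile scaling gave -0.0148 for H2-D1, -0.0272 for H2-K1, -0.0568 for B2m and -0.0527 for Tapbp. GC content and length gave -0.0196 for H2-K1, -0.0131 for B2m, -0.0599 for Tapbp and -0.0422 for Psmb9. Tap1 had -0.0192 with upper quartile scaling and -0.0464 in replicates 2 and 3, and Psmb9 -0.0127 with a pseudocount of 0.1, -0.0118 with voom and -0.0114 in replicates 2 and 3.

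Leaving out each library gave these ranges where a sign turned. In calcification medium over control they were -0.15 to 0.65 for H2-D1, -0.43 to 0.45 for B2m and -0.0136 to 0.62 for Tapbp. In all calcification medium groups they were -0.18 to 0.62, -0.33 to 0.41 and -0.0366 to 0.60 for the same genes. In the Klotho label over vector they were -0.62 to 0.0453 for H2-K1, -0.33 to 0.48 for B2m, -0.51 to 0.0890 for Tapbp, -0.32 to 0.12 for Psmb9 and -0.18 to 0.33 for Nlrc5. In vector over calcification medium they were -0.12 to 0.39 for H2-D1, -0.22 to 0.35 for H2-K1, -0.40 to 0.48 for B2m, -0.13 to 0.21 for Tap1, -0.14 to 0.33 for Tapbp, -0.0198 to 0.74 for Psmb8 and -0.14 to 0.11 for Psmb9. In the Klotho label over calcification medium they were -0.59 to 0.0252 for H2-D1, -0.51 to 0.15 for H2-K1, -0.27 to 0.61 for B2m, -0.47 to 0.18 for Tapbp, -0.31 to 0.12 for Psmb9, -0.39 to 0.19 for Psmb10 and -0.43 to 0.0713 for Nlrc5. Psmb9 rested on 0 to 96 and Nlrc5 on 33 to 228 fragments per library, and the part of counting error in their spread was not tested.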
